A study of Oncorhynchus mykiss with 6 samples.

Results

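The miR-181 family was followed in small RNA libraries from the head kidney of rainbow trout (Oncorhynchus mykiss). Its members were taken by name, as every annotated row of the count table named for this family, whatever the letter, copy number or arm. This gave 9 of the 1381 rows: 3 rows of the 5p arm (miR-181a-5p, miR-181b-5p and miR-181c-5p) and 6 of the 3p arm (4 numbered copies of miR-181a, written miR-181a-1-3p, -2-3p, -4-3p and -5-3p, with miR-181b-3p and miR-181c-3p). The names are those of Atlantic salmon miRNAs, given in the table with the prefix ssa (as ssa-miR-181a-5p and ssa-miR-181c-5p) and written here without it. In teleost fish the head kidney makes blood cells and hosts immune responses, much as bone marrow does in mammals. The 6 fish were females aged 1 year, of which 3 control fish were kept at 18 °C and 3 heat-treated fish at 24 °C, and each fish gave 1 library. The question put to the data is whether the abundance of the family differed between the temperatures.

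A miRNA is cut from a hairpin whose arms are called 5p and 3p. Usually one arm is kept in the silencing complex, where its seed, a short stretch near its 5′ end, pairs with target mRNAs and lowers their output, while the other arm is largely degraded. The 5p arms of miR-181a, miR-181b and miR-181c share one seed and so can act on overlapping targets. In mouse, miR-181a is abundant in thymocytes, where it raises the sensitivity of the T cell receptor by repressing phosphatases of its signalling path, and forced expression in blood progenitors favours B cells. In mouse B cells miR-181b limits activation-induced cytidine deaminase, the enzyme of antibody class switching, and in rat heart miR-181c was found in mitochondria. Several hairpins can give the same mature 5p miRNA, and salmonid genomes carry further gene copies from a whole-genome duplication.

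Library totals ran from 3753036 to 5156793 counts. Marker miRNAs of blood cells were present: miR-142, miR-150 and miR-155 together held 9590 to 17472 CPM (counts scaled to a common total of 1000000 per library after TMM normalisation). The red cell miRNA miR-144 held 481, 870 and 383 CPM in the control libraries and 405, 1604 and 3052 CPM in the heat libraries, with overlapping groups. The myeloid miR-223 and the red cell miR-451 were looked for and had no annotated row with counts. Families of striated muscle were miR-1, miR-133, miR-206 and miR-499, with 6 of 11 rows tested. They summed to 411 to 725 CPM in the control and 1137 to 2326 CPM in the heat libraries, highest in heat replicate 3. Only 1 of the 6 tested rows, miR-499a-5p (means 162 CPM at 18 °C and 935 CPM at 24 °C), had all heat fish above all control fish. Of all tested miRNAs 6.89% were so placed. The estimate of 1 other muscle row was lower at 24 °C. No annotated miR-208 row had counts. The endothelial miR-126 summed to 81200.5 to 107154 CPM with overlapping groups. Epithelial families summed to 435 to 838 CPM at 18 °C and 405 to 435.3 CPM at 24 °C, ranges that just met, and stromal families to 55782 to 80615 CPM and 46408 to 69139 CPM. The part of these cell types in the values below was not tested, and in whole organ RNA fewer cells of a type and less RNA per cell cannot be told apart.

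The family was among the more abundant ones of the organ, and nearly all of it was the 5p arm of miR-181a and miR-181c. All rows together took 5.33% of the counts in control replicate 1 (exact binomial 95% interval 5.31% to 5.35%, which covers counting error only), 3.99% in control replicate 2 and 4.12% in control replicate 3. The heat libraries held 5.11%, 3.92% and 4.14%. The group means were 4.48% ± 0.740 for the control and 4.39% ± 0.632 for the heat fish (SD, n = 3 each), a difference of -0.090 percentage points that was far smaller than the spread between fish. One fish of each group (control replicate 1 and heat replicate 1) lay above 5.1% and the other 4 lay between 3.92% and 4.14%. The sign of the difference rested on single fish. It was 0.34 percentage points without control replicate 1, 0.14 without heat replicate 2 and 0.034 without heat replicate 3. Without heat replicate 1 the difference kept its sign, at -0.45. The 2 rows miR-181a-5p and miR-181c-5p made up 96.9% to 98.5% of the family in every library.

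miR-181a-5p, the leading member, stood at 42843, 29626 and 32215 CPM in the control libraries and at 39562, 31799.8 and 30152.5 CPM in the heat libraries. It was the eighth to eleventh most abundant of all miRNAs in each library, and the groups overlapped almost fully, with one high fish in each. Its means were 34894 ± 7004 CPM for control and 33838 ± 5025 CPM for heat fish (SD, n = 3 each). The log2 fold change (24 °C over 18 °C) was -0.044 ± 0.19 (SE), with a 95% interval from 0.718-fold to 1.31-fold (edgeR quasi-likelihood adjusted p = 0.97). At this depth of 110109 to 218390 counts per library, counting error was at most 0.301%, against a spread between fish of 20.1% at 18 °C and 14.8% at 24 °C.

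miR-181c-5p stood at 9114, 9443 and 7521 CPM in the control libraries and at 10329, 9171 and 8333 CPM in the heat libraries. The highest value belonged to a heat fish and the lowest to a control fish, with the other 4 interleaved. The means were 8693 ± 1028 and 9277 ± 1002 CPM (SD, n = 3 each), and the log2 fold change was 0.094 ± 0.15 (SE; 95% interval 0.830-fold to 1.37-fold; edgeR adjusted p = 0.92). Both leading rows therefore had intervals inside 2-fold either way, as did miR-181a-1-3p, which makes 3 of the 8 tested rows against 31.5% of all tested miRNAs. With a spread of 11.8% and 10.8% between fish, miR-181c-5p was also steadier than the median miRNA of at least 1000 CPM, which had a coefficient of variation of 15.95% at 18 °C and 14.8% at 24 °C.

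miR-181b-5p was the scarce member of the 5p arm. It held 131, 252 and 138 CPM in the control libraries and 163, 80.2 and 148 CPM in the heat libraries. Control replicate 2 was the highest fish and heat replicate 2 the lowest, and the other 4 lay between 131 and 163 CPM with no separation by temperature. The means were 174 ± 67.9 and 131 ± 44.2 CPM (SD, n = 3 each), and the log2 fold change of -0.41 ± 0.38 (SE; 95% interval 0.409-fold to 1.39-fold) did not pass (edgeR adjusted p = 0.84). It was -0.11 without control replicate 2 and -0.15 without heat replicate 2, so the estimate shrank most without either of those fish.

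**Figure D1:**
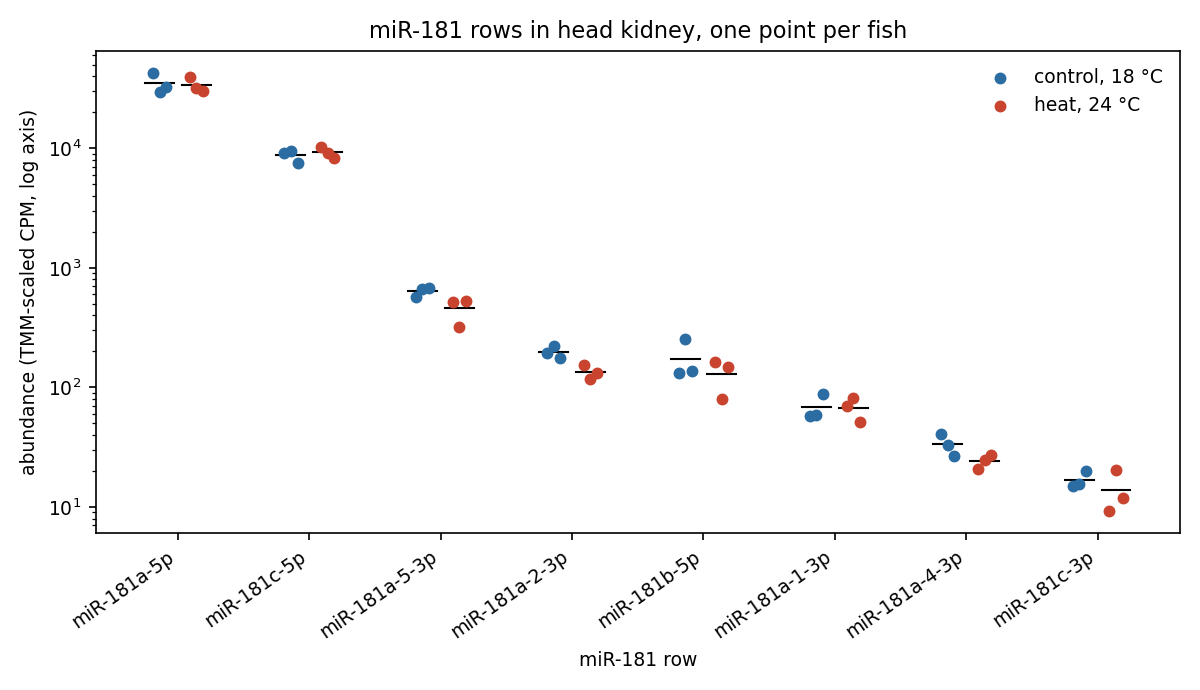
Abundance of the 8 tested miR-181 rows in TMM-scaled CPM (log axis), ordered by level, with 1 point per fish (blue, 3 control fish at 18 °C; red, 3 heat fish at 24 °C) and a black line at each group mean. miR-181a-5p (29626 to 42843 CPM) and miR-181c-5p (7521 to 10329 CPM) stood far above the other rows, and the red points lay wholly below the blue ones for miR-181a-5-3p and miR-181a-2-3p.

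The order of the levels was clear at the top and blurred in the middle. CPM holds no length term, which matters little between mature miRNAs of similar length, but adapters ligate to different miRNAs with different efficiency, so these ratios compare reads rather than molecules. miR-181a-5p exceeded miR-181c-5p 3.82-fold over the 6 libraries, and miR-181c-5p exceeded the next row, miR-181a-5-3p, 16.4-fold, each in 6 of 6 libraries with no overlap of the ranges. miR-181a-5-3p (320 to 683 CPM) in turn lay above miR-181a-2-3p (116 to 223.05 CPM) in 6 of 6. miR-181a-2-3p and miR-181b-5p were not separable, since the first was higher in 3 of 6 libraries, and miR-181b-5p overlapped with miR-181a-1-3p (51.2 to 88.5 CPM). Below them came miR-181a-4-3p (20.8 to 40.6 CPM) and miR-181c-3p (9.26 to 20.2 CPM), whose ranges only just failed to meet. miR-181b-3p had 2 counts in control replicate 2, 2 in heat replicate 3 and 0 in the other 4 libraries. In those 4, 3 counts would have been worth 0.582 to 0.665 CPM before TMM scaling. It was the 1 member that the count filter left out of the test.

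None of the 8 tested rows passed edgeR's test, where 0.186% of the 537 tested miRNAs passed in either direction (1 higher, 0 lower). DESeq2 and limma-voom called 0 of the 8 as well. Of all 537 tested miRNAs DESeq2 called 0.931%, and limma-voom called 1 higher and 0 lower. At an unadjusted p under 0.05, edgeR held 1 of the 8, on the lower side (miR-181a-2-3p), against 3.17% of all tested miRNAs on that side, and none on the higher side, against 3.35%. The estimates were negative for 7 of the 8, against 49.7% of all tested miRNAs, and their median log2 fold change was -0.35, against 0.0020 over all 537. These 8 rows share hairpins and fish and are not independent.

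All 5 tested 3p rows and 2 of the 3 tested 5p rows had a negative estimate, and the arms were not tested against each other. Outside the family 46.1% of the annotated 3p rows and 46.3% of the 5p rows had one, with medians of 0.032 and 0.017. The estimate of miR-181a-1-3p, among the 5, was close to 0 and took the other sign without control replicate 3 or heat replicate 3. In 2 of the 8 rows all 3 heat fish lay below all 3 control fish, against 5.96% of all tested miRNAs, and in none did all heat fish lie above, against 6.89%. Both were 3p copies of miR-181a. Among the 3p rows outside the family 4.96% were apart in the lower direction.

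miR-181a-5-3p, the most abundant 3p copy, held 569, 659 and 683 CPM in the control libraries and 521, 320 and 532 CPM in the heat libraries. The gap between the groups was narrow, from 532 to 569 CPM, and heat replicate 2 was far below the other heat fish. The means were 637 ± 60.3 and 458 ± 119 CPM (SD, n = 3 each), and the log2 fold change was -0.48 ± 0.24 (SE; 95% interval 0.486-fold to 1.06-fold; edgeR adjusted p = 0.63). Without heat replicate 2 it was -0.28.

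miR-181a-2-3p held 192.4, 223.05 and 174.6 CPM in the control libraries and 154, 116 and 131 CPM in the heat libraries. Here no single fish set the gap, and the lowest control fish stood above the highest heat fish by a margin similar to the distance between neighbouring fish. The means were 197 ± 24.5 and 134 ± 19.01 CPM (SD, n = 3 each). The log2 fold change of -0.55 ± 0.22 (SE; 95% interval 0.476-fold to 0.974-fold) had an unadjusted p of 0.039 in edgeR's fit and did not pass after adjustment over all 537 miRNAs (adjusted p = 0.63), ranking 28th of them by p. It lay between -0.68 and -0.47 when any 1 library was left out. The summed level of the striated muscle miRNAs was apart between the groups as well, in the opposite direction. Of their 6 tested rows, 1 was apart and passed edgeR's test, and 1 had a negative estimate. The epithelial miRNAs had the same direction as miR-181a-2-3p, with a negative estimate in 7 of 7 tested rows (median log2 fold change -0.91), 1 of them apart and none passing edgeR's test. Stromal families (miR-143, miR-145, miR-199 and miR-214) had a negative estimate in 5 of 8 tested rows (median -0.14), with 1 row apart in the lower direction. Kidney tubule families (miR-30, miR-192, miR-194 and miR-204) had one in 12 of 19 (median -0.079), with 2 rows apart in the higher direction. Their most abundant rows, miR-30b-5p and miR-30a-5p, overlapped between the groups, with log2 fold changes of -0.079 and -0.098. Over all tested miRNAs 49.7% of the estimates were negative, 5.96% of the rows were apart in the lower direction and 6.89% in the higher. The part of any of these cell types in this result was not tested.

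The scarcer 3p rows overlapped between the groups. miR-181a-4-3p held 40.6, 33.1 and 26.6 CPM in the control libraries and 20.8, 24.5 and 27.3 CPM in the heat libraries, where 1 heat fish passed the lowest control fish, with a log2 fold change of -0.47 ± 0.31 (SE; edgeR adjusted p = 0.73) that was -0.30 without control replicate 1. miR-181a-1-3p held 58.1, 59.2 and 88.5 CPM against 69.6, 81.2 and 51.2 CPM, so that the extremes at both ends were the third fish of each group, and its log2 fold change was -0.026 ± 0.30 (SE; edgeR adjusted p = 0.996). miR-181c-3p held 14.9, 15.6 and 19.9 CPM against 9.26, 20.2 and 11.97 CPM, with a log2 fold change of -0.28 ± 0.39 (SE; edgeR adjusted p = 0.90). This value rested on single fish, being -0.087 without heat replicate 1 and -0.67 without heat replicate 2. Leaving out control replicate 3 gave -0.17. Its 48 to 95 counts per library made it the least precisely counted of the tested rows, with a counting error of up to 14.4%.

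**Figure D2:**
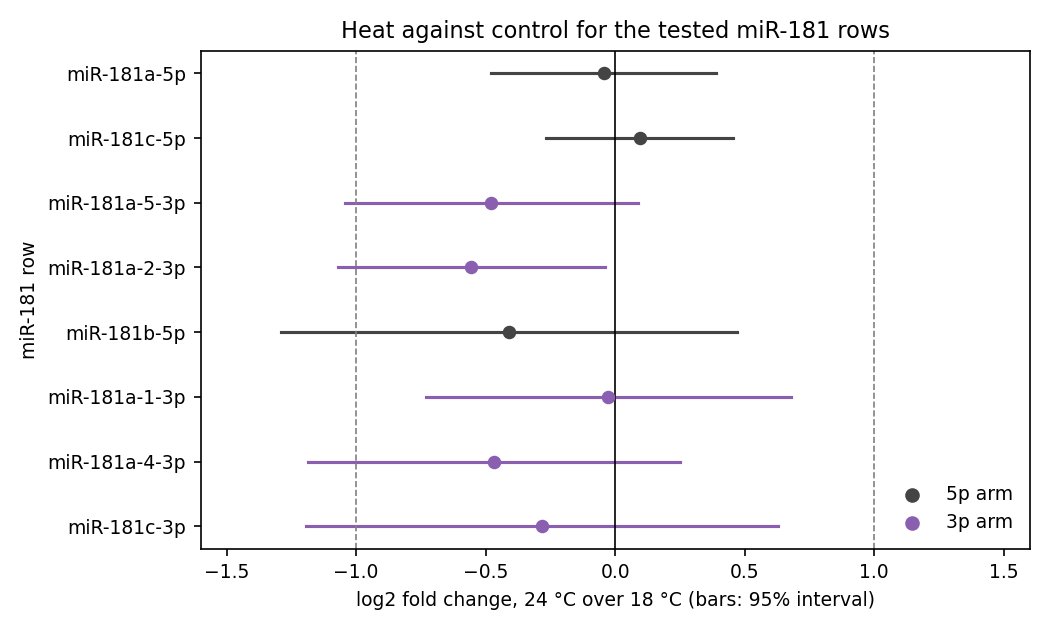
Log2 fold change of the 8 tested miR-181 rows, 24 °C over 18 °C, with the 95% interval from edgeR's fit over 537 miRNAs (black, 5p arm; purple, 3p arm; dashed lines, 2-fold either way). The intervals of miR-181a-5p and miR-181c-5p were short and centred near 0, the 5 purple points were all negative, and only the interval of miR-181a-2-3p (0.476-fold to 0.974-fold) left 0 out, before any adjustment.

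**Figure D3:**
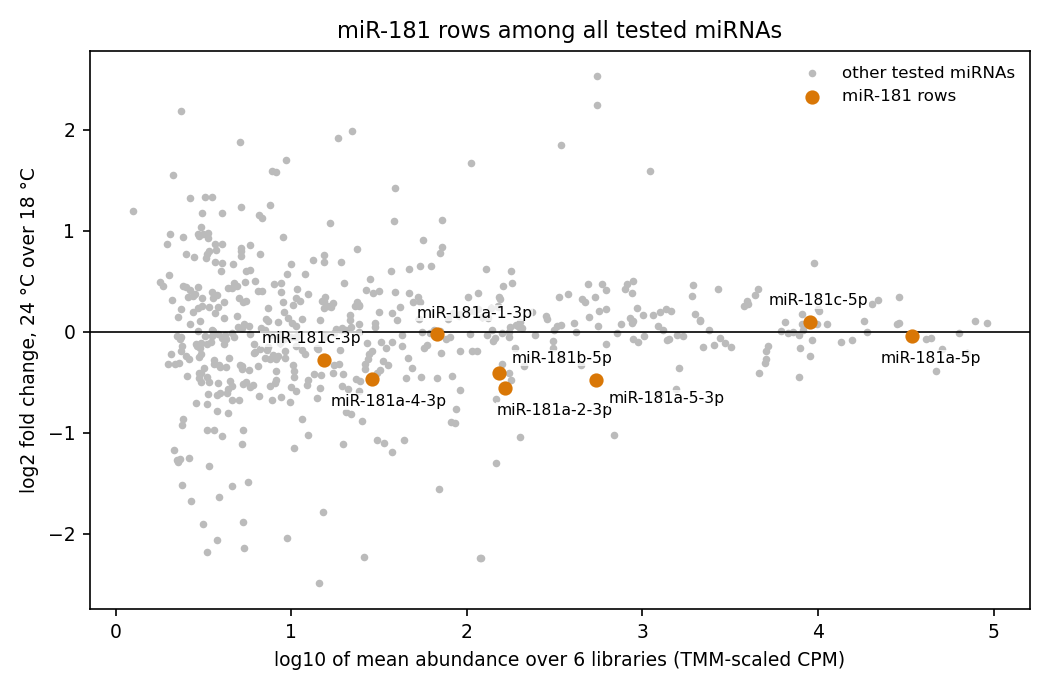
Log2 fold change (24 °C over 18 °C) against the log10 of the mean abundance in TMM-scaled CPM for all 537 tested miRNAs (grey), with the 8 miR-181 rows in orange. The miR-181 rows lay within the cloud of miRNAs of like abundance, 7 of them below 0.

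The 3p copies of miR-181a were then summed, since it is not given how reads matching several copies, if any, were counted. The sum held 891, 964 and 953 CPM in the control libraries and 751, 531 and 770.5 CPM in the heat libraries. The control fish were close together, all 3 heat fish lay lower, and heat replicate 2 was again the lowest. Most of this sum was copy 5, with copy 2 next, the copies already described as apart. The gap in the sum is therefore no separate result. In a fit with all copies summed (507 rows tested) the means were 936 ± 39.3 and 684 ± 133.2 CPM (SD, n = 3 each), and the log2 fold change of -0.45 ± 0.20 (SE; 95% interval 0.531-fold to 1.01-fold) did not pass (edgeR adjusted p = 0.61). The shared miR-181a-5p row in the same fit had a log2 fold change of -0.055 ± 0.19 (SE; edgeR adjusted p = 0.96).

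The make-up of the miR-181a 3p reads overlapped between the temperatures and was not tested. Copy 5 gave 66.1%, 67.7% and 70.2% of them in the control libraries and 68.1%, 59.0% and 71.7% in the heat libraries. Copy 2 gave 17.9% to 22.9% and 17.7% to 21.5%, and copy 4 gave 2.73% to 4.72% and 2.72% to 4.51%. Copy 1 gave 6.07% to 9.09% in the control and 6.91% to 14.97% in the heat libraries, the highest share being that of heat replicate 2, the library with the least of copy 5. The mean share of copy 1 was 7.31% ± 1.58 in control and 10.3% ± 4.17 in heat fish (SD, n = 3 each), and the groups overlapped for all 4 copies. Since each numbered 3p row belongs to 1 named copy while the 5p row carries no number, these shares describe the 3p reads and not the output of each hairpin.

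Arm balance was expressed, within each library, as the log2 of 5p counts over 3p counts, which needs no scaling. For miR-181a, with the 3p copies summed, it was 5.64, 4.93 and 5.05 in the control libraries and 5.69, 5.87 and 5.35 in the heat libraries. Control replicate 1 lay among the heat fish and the groups overlapped. The means of 5.20 ± 0.381 and 5.64 ± 0.268 (SD, n = 3 each) correspond to 36.9 and 49.8 reads of the 5p arm for each 3p read. The difference of 0.43 ± 0.28 (SE; 95% interval -0.20 to 1.07) did not pass (limma adjusted p = 0.63). Of the 91 miRNA names tested, each with both arms averaging 10 counts or more, 3.30% did.

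For miR-181c the log2 ratio was 9.25, 9.23 and 8.56 in the control libraries and 10.1, 8.82 and 9.43 in the heat libraries, with overlapping groups. The means of 9.01 ± 0.393 and 9.45 ± 0.646 (SD, n = 3 each) correspond to 516 and 700.1 reads of the 5p arm per 3p read, and the difference of 0.44 ± 0.36 (SE; 95% interval -0.38 to 1.26) did not pass (limma adjusted p = 0.78). By mean ratio miR-181c ranked 10th and miR-181a 33rd of the 91 miRNA names, so 3p reads were rarer, relative to 5p reads, for miR-181c. miR-181b had too few 3p counts for this test.

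Set against the shared 5p row one copy at a time, the log2 ratio rested on the copy chosen. Against copy 2 it was 7.80, 7.05 and 7.53 in the control and 8.003, 8.09 and 7.85 in the heat libraries, so the heat fish lay just above the control fish, with a difference of 0.52. The row miR-181a-2-3p was itself apart between the groups, so this is no separate result. Arm ratios of other miRNA names were apart as well, among them miR-26a and miR-142a (higher) and miR-365 and miR-15b (lower). Against copies 5 and 4 the differences were 0.47 and 0.42 with overlapping groups, and against copy 1 the difference was -0.012. This choice of single copies was made after the data were seen, and none of the 4 passed when put in place of the summed copies (limma adjusted p from 0.46 to 0.97).

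**Figure D4:**
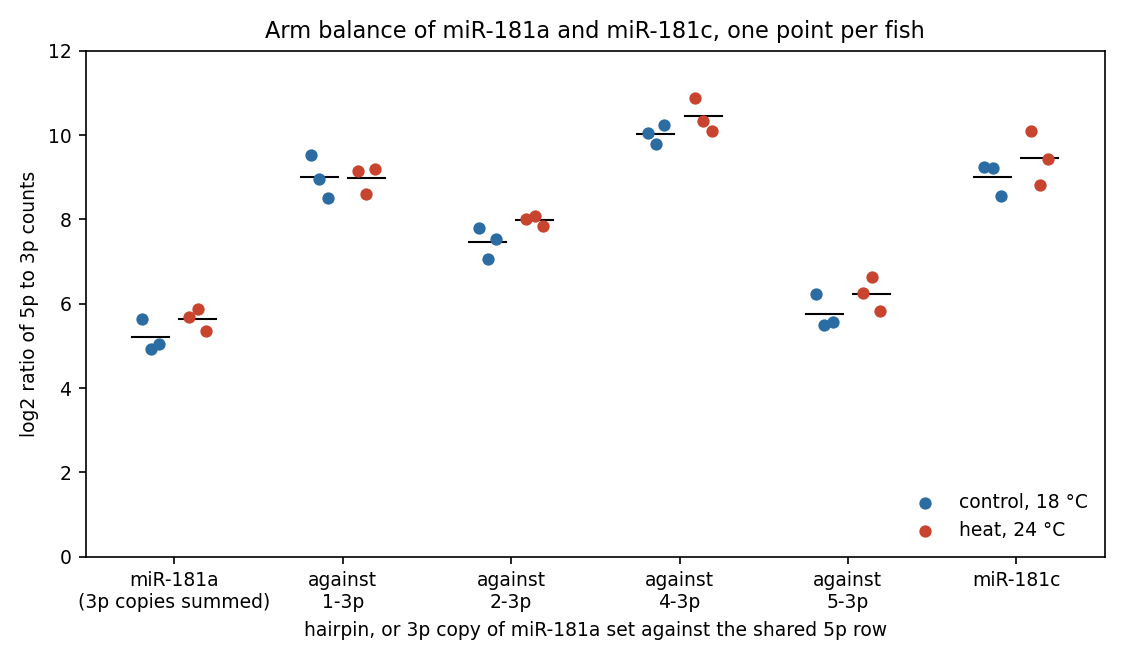
Log2 of 5p over 3p counts in each fish (blue, 18 °C; red, 24 °C; black line, group mean) for miR-181a with its 3p copies summed, for the shared miR-181a-5p row against each 3p copy alone, and for miR-181c. The ratio of miR-181c lay near 9 and that of miR-181a between 4.93 and 5.87. The red points cleared the blue ones against copy 2 alone, whose 3p row was itself apart between the groups.

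The balance between the leading members was compared in the same way. Reads of miR-181a-5p per read of miR-181c-5p numbered 4.70, 3.14 and 4.28 in the control libraries and 3.83, 3.47 and 3.62 in the heat libraries. All 3 heat fish fell inside the range of the control fish. On the log2 scale the ratio averaged 1.99 ± 0.306 in control and 1.86 ± 0.0720 in heat fish (SD, n = 3 each), a difference of -0.13 (two-sided exact permutation p = 0.5, where 0.1 is the smallest that 3 against 3 allows). Without control replicate 2 the difference was -0.30 and without control replicate 1 it was -0.012. Reads of miR-181a-5p per read of miR-181b-5p ran from 118 to 327 at 18 °C and from 203.2 to 396 at 24 °C, so miR-181b-5p varied far more against miR-181a-5p than miR-181c-5p did.

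The highest and lowest values of the tested rows were spread over all 6 fish. Heat replicate 2 was the lowest of all 6 libraries for miR-181a-5-3p (320 CPM), miR-181a-2-3p (116 CPM) and miR-181b-5p (80.2 CPM), while it was the highest for miR-181c-3p (20.2 CPM). Control replicate 2 was the highest for miR-181b-5p (252 CPM) and miR-181a-2-3p (223.05 CPM) and the lowest for miR-181a-5p (29626 CPM). Control replicate 3 was the highest for miR-181a-5-3p (683 CPM) and miR-181a-1-3p (88.5 CPM) and the lowest for miR-181c-5p (7521 CPM). Heat replicate 1 was the highest for miR-181c-5p (10329 CPM) and the lowest for miR-181a-4-3p (20.8 CPM) and miR-181c-3p (9.26 CPM). Heat replicate 3 was the lowest for miR-181a-1-3p (51.2 CPM). Control replicate 1 was the highest for miR-181a-5p (42843 CPM) and miR-181a-4-3p (40.6 CPM). Apart from this highest fish of copy 4, the 5p row and the 3p rows of miR-181a had their highest and lowest values in different fish.

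Other miRNA families known from lymphocyte development in mouse (miR-15, miR-16, miR-17, miR-18, miR-19, miR-20, miR-29, miR-92, miR-142, miR-146, miR-150 and miR-155) held 50 tested rows out of 65, of which none passed edgeR's test in either direction, beside the background of 0.186%. Their median log2 fold change was 0.071, with 17 of 50 negative (49.7% over all tested miRNAs), 1 apart in the lower direction (5.96% over all) and 6 apart in the higher (6.89% over all). The most abundant of these rows were miR-146a-5p, a brake on innate immune signalling, with a log2 fold change of -0.21 ± 0.20 (SE), and miR-92a-3p of the miR-17/92 cluster, with 0.31 ± 0.27 (SE). Among miR-142, miR-150 and miR-155 alone, the markers of white blood cells, none of 6 tested rows passed and the median was 0.25. The most abundant of these rows, miR-142b-3p and miR-142a-5p, overlapped between the groups. Their log2 fold changes were -0.14 ± 0.23 (SE) and 0.42 ± 0.37 (SE). Of the 6 rows 2 had a negative estimate (49.7% over all) and 1, miR-150-5p, was apart in the higher direction (6.89% over all). Its means were 683 CPM for control and 944 CPM for heat fish, with a log2 fold change of 0.47 ± 0.20 (SE; edgeR adjusted p = 0.63). miR-34 and miR-223, also on this list, had no annotated row with counts. The lists describe these rows and were not tested as sets.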

How the data were processed

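Small RNA was sequenced from the head kidney of 6 trout, 1 library per fish, after TRIzol extraction and library preparation with the NEBNext kit for small RNA, per the labels' protocols. The authors deposited read counts per miRNA for 1381 rows (392 annotated, 989 predicted) and TPM values, which are the same counts scaled to the library sum with no length term, per the file headers and the values. Per the submitters' processing notes, Bowtie was used; its settings, the build and the treatment of reads matching several copies are not given in the sources here. Sequences and genome positions of the miRNAs were not used here.

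The test was edgeR 4.0.16 (R 4.3.3). Rows passing filterByExpr (minimum count 10, minimum total 15; 537 rows, 8 of 9 miR-181 rows) were scaled by TMM and fitted with a robust quasi-likelihood model, heat against control. Benjamini-Hochberg adjustment ran over all 537 rows, with a threshold of 0.05. Standard errors were taken from the fold change and the F statistic. Arm ratios (0.5 added to each count, copies summed per letter and arm, both arms averaging 10 counts or more) were tested with limma 3.58.1 over 91 miRNA names. The scripts were tested on simulated data. There edgeR found 19 of 82 changes of 2-fold, 54 of 68 of 4-fold and 46 of 50 of 8-fold, so most 2-fold changes were missed. The simulated data held far more changes than passed here, with 123 of 537 rows called against 1 of 537. This makes the adjusted threshold easier to meet, so these rates can overstate what the test could find here. They also pool rows of all levels. Every pair of libraries differed beyond sampling noise, with a chi-square of 145 to 436 for each degree of freedom. Whether the fish came from separate tanks is not given. The p-values set the group difference against the spread between these fish within each group. If each temperature had its own tank, tank and temperature could not be told apart, and the p-values would not cover this. Alternatives were other scalings, tests (limma-voom, limma on log2 TPM, DESeq2 1.42.0), filters, a replicate block and each library left out.

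The members, lists and tests were chosen with earlier results of these data known. Every miR-181 row was named. For each list the 2 rows of highest mean CPM were to be named, which is done here for the lymphocyte list, and for each tested member the 3 annotated rows most like it. Figures were drawn with matplotlib 3.10.9.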

Additional observations from a re-analysis of the deposited data

How the results depend on the processing

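No miR-181 row passed in any of the 20 alternative settings. Of these, the legacy edgeR fit was added after seeing the data and only repeated the values of the main fit. Of 156 fold changes of the 8 tested rows, 5 took the other sign, each with a library left out: the log2 fold change ran from -0.23 to 0.13 for miR-181a-5p, from -0.20 to 0.17 for miR-181a-1-3p and from -0.022 to 0.13 for miR-181c-5p. miR-181a-2-3p stayed between -0.68 and -0.47, with its smallest adjusted p, 0.23, in DESeq2. Over all miRNAs, DESeq2 called 2 higher and 3 lower, and without a library edgeR called 0 to 1 higher and 0 to 1 lower. The cause of these differences was not tested. The arm difference of miR-181a was -0.012 when copy 1 stood for the 3p arm, and 0.29 to 0.65 without a library. That of miR-181c was 0.11 to 0.76. The family share differed by -0.45 to 0.34 percentage points without a library. With the replicate block, edgeR called 0 miRNAs higher in place of 1. For the ratio of miR-181a-5p to miR-181c-5p, pairing by number leaves the difference of -0.13 unchanged by construction, so it is no check on it. Deviations of same-numbered fish from their group means were not shared (correlations -0.059, -0.20 and -0.17), and no control library deviated most closely with the heat library of its own number. With 4 counts in all, miR-181b-3p was too scarce in these libraries to pass the count filter.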

Other observations

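For each tested miR-181 row, the annotated miRNAs of at least 100 CPM outside the family (127 in all) were ranked by Pearson's r of log2 CPM over the 6 libraries, as a description of these libraries. The libraries share their scaling, and the highest of 127 values is high by selection. The highest r of miR-181a-5p was 0.76 with let-7a-4-3p, followed by miR-455-5p (0.70) and miR-19c-3p (0.69). This top value was close to that of miR-181a-5-3p (0.78). miR-181c-5p went most closely with miR-214-3p (r = 0.91; 316, 354 and 284 CPM at 18 °C, 380.1, 336 and 276 CPM at 24 °C), then with miR-27d-3p (0.88) and miR-221-5p (0.88).

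The closest match of any member was that of miR-181b-5p with miR-16a-5p (r = 0.96) and miR-16b-5p (r = 0.95), of a family that restrains the cell cycle, followed by miR-106a-3p (0.92). miR-16a-5p held 8624, 11528 and 8402 CPM in the control libraries and 10023, 7547 and 9472 CPM in the heat libraries. Control replicate 2 was thus the highest and heat replicate 2 the lowest, as for miR-181b-5p, over a much narrower range. Among the 3p rows, miR-181a-2-3p went with miR-7132b-5p (r = 0.94; 1889, 1895 and 1805 CPM at 18 °C, 1328, 1188 and 1254 CPM at 24 °C), miR-203a-3p (0.83) and miR-204-5p (0.82). miR-7132b-5p and miR-204-5p were also among the 3 nearest of miR-181a-5-3p (r = 0.78 and 0.73), with miR-7132a-5p (0.73). The nearest of miR-181a-1-3p were miR-27b-3p (0.92), miR-10b-5p and miR-731-5p (both 0.89), those of miR-181a-4-3p were miR-30b-5p (0.81), let-7e-5p (0.77) and miR-458-3p (0.75), and those of miR-181c-3p were miR-146a-5p (0.87), let-7g-5p and miR-140-5p (both 0.83).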
